A study of Mus musculus with 13 samples.

Results

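The genes described here are 9 cytochrome P450 genes, Cyp4a10, Cyp4a12a, Cyp4a12b, Cyp4a14, Cyp4a31, Cyp4a32, Cyp4b1, Cyp2j5 and Cyp2e1, taken by symbol from the 35013 gene symbols of the deposited table of estimated counts. They were chosen by earlier results on the same counts, namely their levels and fold changes in these libraries, so their levels and fold changes are given as a description, with no p-value. The study labelled newly made RNA of the mouse proximal tubule with 4-thiouracil, by means of a Uprt transgene switched on by Cre, to compare the deletion of Spns1 with iron loading. There were 13 libraries, 5 labelled WT, 4 labelled Spns1 KO and 4 labelled Iron Overload (FeO). The total estimated count per library ran from 23068023 to 71296474.

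According to the methods every mouse carried Megalin3'Cre-Ert and Uprt flox/+, with Spns1 flox/flox in Spns1 KO and Spns1 flox/+ in WT and FeO, although the labels call the latter groups Spns1 WT. Every mouse had received tamoxifen and 4-thiouracil, and all are labelled female. Ages are not given in the sources used here. FeO mice had received 12 mg of iron as iron sucrose on each of 3 days and were euthanized 1 week later. The Cre is expressed from the megalin gene (Lrp2), so that cells without megalin should keep Spns1 and should not be tagged. A deposited count covers all exons of Spns1 whereas the floxed allele loses 1 of them, and the Spns1 counts of the groups overlapped (36.6 to 59.0 CPM in Spns1 KO against 39.2 to 62.9 in WT). The genotype labels were therefore not checked by these counts. Levels are in CPM, the estimated count as a share of the library total scaled with edgeR's TMM factors.

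Cytochromes P450 are heme enzymes of the endoplasmic reticulum that add an oxygen atom to a lipid or a foreign compound, with electrons passed on by P450 reductase (Por) or cytochrome b5. Enzymes of the Cyp4 family hydroxylate fatty acids at or near the methyl end, which turns arachidonic acid into hydroxyeicosatetraenoic acids that act on renal vessels and sodium transport. Cyp2j enzymes form epoxides of the same fatty acid, and Cyp2e1 oxidizes ethanol, acetone and small solvents. Several Cyp4a genes are classical targets of the fatty acid receptor PPARα, and in mice the renal levels of some of these genes, Cyp4a12a and Cyp2j5 among them, depend on sex hormones.

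On GRCm38, 7 of the genes lie in 1 cluster on chromosome 4. Cyp4a12a spans 115299046 to 115332815, Cyp4a12b 115411624 to 115439034, Cyp4a10 115518264 to 115533649, Cyp4a31 115563649 to 115579015 and Cyp4a32 115600969 to 115621602, all on the plus strand. Cyp4a14 (115486200 to 115496142) and Cyp4b1 (115624725 to 115647723) lie beside them on the minus strand. Cyp2j5 is on the same chromosome at 96628773 to 96664154 on the minus strand, and Cyp2e1 is on chromosome 7 at 140763739 to 140774987 on the plus strand. The main transcript has 9 exons in Cyp2j5 and Cyp2e1, 13 in Cyp4a10 and 12 in the others.

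The Cyp4a genes are near copies, which bears on how counts were divided among them. The coding sequences of Cyp4a12a and Cyp4a12b were identical at 98.5% of 1524 bases, with 23 differences. Those of Cyp4a10 and Cyp4a32 were identical at 97.2%, of Cyp4a10 and Cyp4a31 at 96.6% and of Cyp4a31 and Cyp4a32 at 96.0%. Cyp4a14 stood further off, at 75.4% identity with Cyp4a10, and Cyp4b1 further still, at 59.5%. Of all 31-base words in the annotated transcripts, 62.2% of those of Cyp4a12a and 62.9% of those of Cyp4a12b also occurred in another gene. The share was 62.8% for Cyp4a32, 44.9% for Cyp4a10 and 32.0% for Cyp4a31, against 11.7% for Cyp4b1, 5.83% for Cyp2e1, 3.46% for Cyp2j5 and 1.99% for Cyp4a14. Reads were paired, so that a fragment can reach a difference that a word of 31 bases does not. How the estimate divided the rest cannot be read from the table, and counts of the 5 near-identical genes are uncertain as single values.

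The stretch of the coding sequence where Cyp4a12a and Cyp4a12b differ most is shown because such differing bases help to tell their reads apart. It is coding position 661 to 750 in both, the strand shown is the coding strand, and capitals mark the 7 positions at which they differ.
Cyp4a12a, chr4:115326659-115326748: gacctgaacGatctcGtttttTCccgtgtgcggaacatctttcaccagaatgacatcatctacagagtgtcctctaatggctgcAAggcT
Cyp4a12b, chr4:115432912-115433001: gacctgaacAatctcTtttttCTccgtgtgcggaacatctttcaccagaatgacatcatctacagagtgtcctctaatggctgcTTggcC

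The matching stretch for the set of Cyp4a10, Cyp4a31 and Cyp4a32 is coding position 190 to 279. Capitals mark the 13 positions at which at least 1 of the genes differs from another.
Cyp4a10, chr4:115519630-115519719: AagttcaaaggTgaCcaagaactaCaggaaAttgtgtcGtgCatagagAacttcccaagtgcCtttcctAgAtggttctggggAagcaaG
Cyp4a31, chr4:115565010-115565099: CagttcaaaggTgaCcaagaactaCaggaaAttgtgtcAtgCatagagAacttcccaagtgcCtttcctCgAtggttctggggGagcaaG
Cyp4a32, chr4:115602260-115602349: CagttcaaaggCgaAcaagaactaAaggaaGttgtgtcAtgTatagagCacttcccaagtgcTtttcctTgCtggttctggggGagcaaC

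Counted together, the 9 genes took 1734 to 2291 CPM of each WT library, 1601 to 3464 CPM in Spns1 KO and 1778 to 3531 CPM in FeO. The summed level thus overlapped between the groups. Whether this sum differed between them was not tested, and overlap among so few libraries does not show that it was equal. Relative to WT, 2 of the 9 genes were called up in Spns1 KO and none was called down. In FeO 3 were called up and 2 down. A call needed an edgeR quasi-likelihood p under 0.05 after Benjamini-Hochberg adjustment, and a log2 fold change above 0.5 or below -0.5. Over the 16468 genes tested, 21.6% were called in Spns1 KO and 42.2% in FeO, and nothing is read from the counts of these genes because they were picked with both comparisons known. The 9 genes had a median log2 fold change of 0.17 for Spns1 KO and 0.34 for FeO, beside -0.05 and -0.01 over all genes tested. Between the models, 1 gene was called up in Spns1 KO relative to FeO (Cyp2j5) and 1 down (Cyp2e1), beside 6.76% and 8.1% of all genes tested. The same genes were the 1 lying wholly above FeO and the 1 lying wholly below it, beside 8.25% and 9.1% of all genes. All 9 passed the filter on low counts. Both comparisons share the WT libraries.

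**Figure D1:**
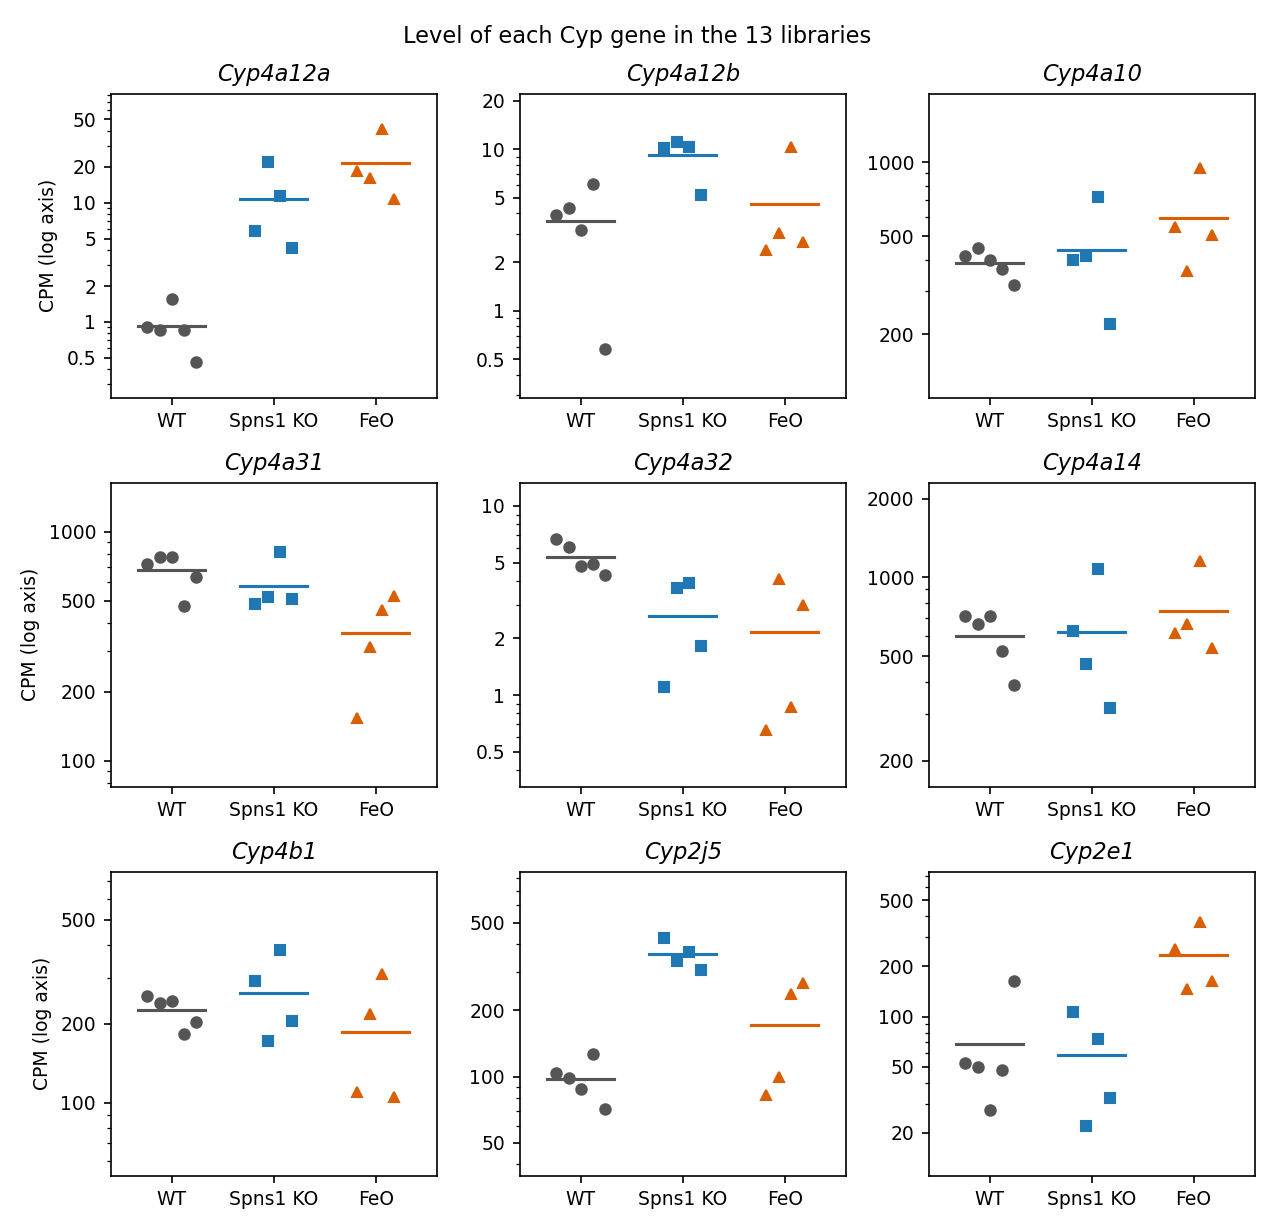
Level of each gene in every library, in CPM on a log axis that differs between panels (points, libraries; lines, group means; WT n = 5, Spns1 KO n = 4, FeO n = 4). Cyp4a12a lay at 0.46 to 1.54 CPM in WT and at 4.20 CPM or more in all other libraries, and Cyp2j5 in Spns1 KO lay between 306 and 428 CPM, above every other library.

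Cyp4a12a forms hydroxyeicosatetraenoic acid from arachidonic acid and is known as the Cyp4a of the male mouse kidney. It was the lowest of the 9 genes in WT, at 0.90, 0.86, 1.54, 0.85 and 0.46 CPM in libraries 1 to 5, which rest on 33, 28, 49, 24 and 12 counts. In Spns1 KO 1 to 4 it was at 5.74, 22.1, 11.3 and 4.20 CPM (385, 817, 338 and 178 counts). In FeO 1 to 4 it was at 18.4, 16.2, 41.1 and 10.6 CPM (562, 499, 1043 and 284 counts). Every Spns1 KO and every FeO library lay above every WT library, and the 2 models overlapped each other. Of all genes tested, 13.1% lay wholly above WT in Spns1 KO and 16.9% in FeO. Against WT, the log2 fold change in Spns1 KO was 3.53 ± 0.51 (± standard error, here and for every log2 fold change) and that in FeO 4.53 ± 0.52, and both calls held in every alternative run. A single library moved each most, to 2.92 without Spns1 KO 2 and to 4.02 without FeO 3. Between the models it was -1.0 ± 0.48, which was not called, but without the library Spns1 KO 2 it was -1.61 and called down.

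Cyp4a12b, its near copy, did not follow it in FeO. WT 1 to 5 were at 3.89, 4.34, 3.15, 6.11 and 0.58 CPM, the last on 15 counts. The Spns1 KO libraries were at 10.1, 11.1, 10.3 and 5.21 CPM and the FeO libraries at 2.39, 3.02, 10.4 and 2.66 CPM. Inside the WT range were Spns1 KO 4 and 3 of the 4 FeO libraries. Relative to WT, Spns1 KO had a log2 fold change of 1.34 ± 0.51, not called, and FeO one of 0.34 ± 0.52. In Spns1 KO the gene was called up without Spns1 KO 4 (1.53) and without FeO 3 (1.34), which enters through the shared estimate of spread, and also with limma-voom (1.57) and with only the 2 groups compared (1.36). Without FeO 3 the FeO value turned to -0.43, and the difference of Spns1 KO from FeO went from 0.99 ± 0.54 to 1.77 and was called up.

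Of the summed counts of Cyp4a12a and Cyp4a12b, Cyp4a12a held 18.8, 16.6, 32.9, 12.2 and 44.4% in WT 1 to 5. The share was 36.2, 66.6, 52.4 and 44.6% in Spns1 KO 1 to 4, and 88.5, 84.3, 79.9 and 80.0% in FeO 1 to 4. FeO thus lay above every other library, whereas Spns1 KO and WT overlapped through WT 5, where the share rests on 27 counts (95% Wilson interval 27.6 to 62.7%, which covers counting error only). The sum of both genes does not depend on how shared reads were divided between them, unless such reads were left out. It was 1.04 to 6.96 CPM in WT, 9.41 to 33.2 CPM in Spns1 KO and 13.3 to 51.5 CPM in FeO, again with neither model overlapping WT. On the sum, the log2 fold change in Spns1 KO was 2.13 ± 0.47 and that in FeO 2.52 ± 0.48, more than 1 log2 unit less than for Cyp4a12a alone.

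**Figure D2:**
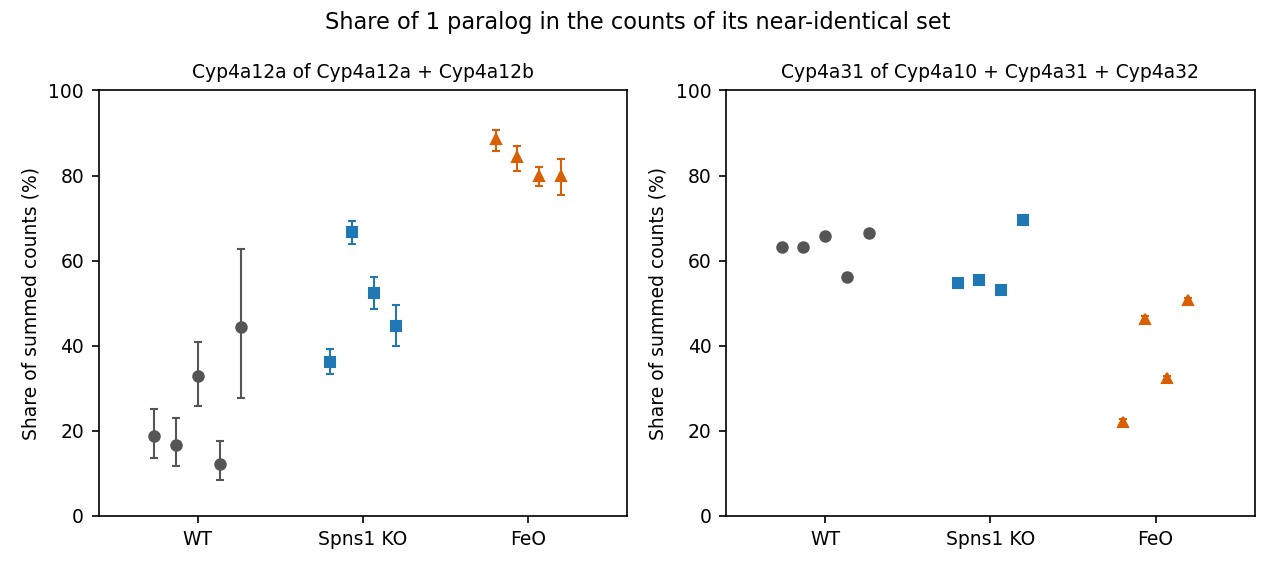
Share of 1 gene in the summed estimated counts of its near-identical set, per library (left, Cyp4a12a of Cyp4a12a and Cyp4a12b; right, Cyp4a31 of Cyp4a10, Cyp4a31 and Cyp4a32; bars, 95% Wilson intervals of the count, counting error only). Cyp4a12a held 79.9 to 88.5% in FeO against 12.2 to 44.4% in WT, and Cyp4a31 held 22.1 to 50.6% in FeO against 56.1 to 66.5% in WT.

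Cyp4a10, Cyp4a31 and Cyp4a32 form the other set of near copies, of which Cyp4a10 is the best studied, a fatty acid hydroxylase induced through PPARα. Cyp4a31 was at 724, 776, 775, 475 and 636 CPM in WT 1 to 5. It was at 481, 517, 819 and 508 CPM in Spns1 KO 1 to 4 and at 154, 315, 456 and 524 CPM in FeO 1 to 4. In FeO 3 of 4 libraries lay below the WT range, and Spns1 KO 3 alone lay above it. Spns1 KO differed from WT by a log2 fold change of -0.22 ± 0.29, not called, and FeO by -0.90 ± 0.30, called down. That call was lost without WT 3 (-0.84), FeO 1 (-0.63) or FeO 2 (-0.83). The difference of Spns1 KO from FeO was 0.68 ± 0.31, not called.

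Cyp4a10 was at 414, 448, 398, 367 and 316 CPM in WT 1 to 5. The Spns1 KO libraries were at 399, 414, 719 and 221 CPM and the FeO libraries at 542, 360, 949 and 508 CPM. All groups overlapped, with the highest values in Spns1 KO 3 and FeO 3. Relative to WT, Spns1 KO had a log2 fold change of 0.17 ± 0.30 and FeO one of 0.60 ± 0.30, and neither was called. Without Spns1 KO 3 the first turned to -0.17, and without FeO 2 the second was 0.80 and called up. Without FeO 3 the FeO value was 0.27, and with a length and GC trend removed it was 0.32.

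Cyp4a32 was low, at 6.64, 6.04, 4.79, 4.91 and 4.32 CPM in WT 1 to 5, on 112 to 244 counts. It was at 1.1, 3.68, 3.91 and 1.82 CPM in Spns1 KO 1 to 4 and at 0.66, 4.12, 0.87 and 3.00 CPM in FeO 1 to 4. Every library of both models lay below every WT library, as 9.38% of all genes tested did in Spns1 KO and 16.4% in FeO. Spns1 KO differed from WT by a log2 fold change of -1.04 ± 0.48, not called, although it was called down with limma-voom (-1.29) and with only the 2 groups compared (-1.02). In FeO it was -1.30 ± 0.48 and called down. The FeO call was lost without WT 1 (-1.21), WT 2 (-1.26), WT 3 (-1.33), WT 4 (-1.32), FeO 1 (-0.98) or FeO 3 (-1.04).

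Summed over Cyp4a10, Cyp4a31 and Cyp4a32, the level was 847 to 1230 CPM in WT, 730 to 1541 CPM in Spns1 KO and 679 to 1406 CPM in FeO. The groups overlapped, and the log2 fold change of the sum, -0.07 ± 0.26 for Spns1 KO and -0.17 ± 0.26 for FeO, was not called. Within the sum, Cyp4a31 held 63.2, 63.1, 65.8, 56.1 and 66.5% in WT 1 to 5 and 54.6, 55.3, 53.1 and 69.5% in Spns1 KO 1 to 4. It held 22.1, 46.4, 32.4 and 50.6% in FeO 1 to 4, less than in any WT or Spns1 KO library. Cyp4a32 held at most 0.61% of the sum in any library. How far the division of shared reads set these shares was not tested.

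Cyp4a14, a further fatty acid hydroxylase induced through PPARα, shares few 31-base words with the others. Its level was 715, 666, 711, 522 and 389 CPM in WT 1 to 5. The Spns1 KO libraries were at 626, 467, 1077 and 318 CPM and the FeO libraries at 614, 666, 1152 and 540 CPM. The groups overlapped, with Spns1 KO 3 and FeO 3 again the highest, and log2 fold changes against WT of 0.05 ± 0.32 (Spns1 KO) and 0.31 ± 0.32 (FeO) were not called. The 95% interval of the first ran from -0.58 to 0.68 and so held changes of 0.5 in either direction. Without Spns1 KO 3 it turned to -0.35.

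Cyp4b1 hydroxylates short fatty acids and activates some plant toxins. It was at 254, 241, 243, 182 and 204 CPM in WT 1 to 5. The Spns1 KO libraries were at 291, 172, 381 and 206 CPM and the FeO libraries at 110, 218, 311 and 105 CPM. The groups overlapped, and FeO 1 and FeO 4 were the lowest of the 13 libraries. Against WT, the log2 fold change in Spns1 KO was 0.22 ± 0.30 (-0.01 without Spns1 KO 3) and that in FeO -0.28 ± 0.31, neither called.

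Cyp2j5 is an epoxygenase of arachidonic acid that is abundant in the mouse proximal tubule. It was at 104, 98.6, 87.5, 127 and 71 CPM in WT 1 to 5 and at 428, 334, 370 and 306 CPM in Spns1 KO 1 to 4. In FeO 1 to 4 it was at 82.6, 99.4, 239 and 266 CPM. Spns1 KO lay above every WT and every FeO library, whereas FeO 1 and FeO 2 lay inside the WT range and FeO 3 and FeO 4 above it. Against WT, the log2 fold change in Spns1 KO was 1.88 ± 0.30, called up in every alternative run (1.76 to 2.01). In FeO it was 0.81 ± 0.30 and called up, but the call was lost without WT 1 (0.83), WT 2 (0.81), WT 3 (0.79), WT 5 (0.73), FeO 3 (0.61) or FeO 4 (0.55), and it held in only 6 of 11 other settings. Spns1 KO against FeO gave 1.07 ± 0.32, called up, and that call was lost without Spns1 KO 1 (0.97), Spns1 KO 2 (1.1), Spns1 KO 3 (1.05), FeO 1 (0.84) or FeO 2 (0.88). Compared with FeO, 14.9% of all genes tested were called in Spns1 KO.

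Cyp2e1, known for its induction by ethanol, was called up in FeO and was not called in Spns1 KO. It was at 52.4, 49.9, 27.4, 47.7 and 163 CPM in WT 1 to 5 and at 106, 22.1, 73.5 and 32.2 CPM in Spns1 KO 1 to 4. In FeO 1 to 4 it was at 253, 147, 372 and 164 CPM. Every FeO library lay above every Spns1 KO library and above WT 1 to 4, and WT 5 lay among the FeO libraries. Relative to WT, Spns1 KO had a log2 fold change of -0.22 ± 0.50 (0.41 without WT 5) and FeO one of 1.78 ± 0.51, called up in every alternative run (2.42 without WT 5). The difference of Spns1 KO from FeO was -2.0 ± 0.55, called down, but not without Spns1 KO 2 (-1.72), Spns1 KO 4 (-1.79), FeO 1 (-1.96) or FeO 3 (-1.68).

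**Figure D3:**
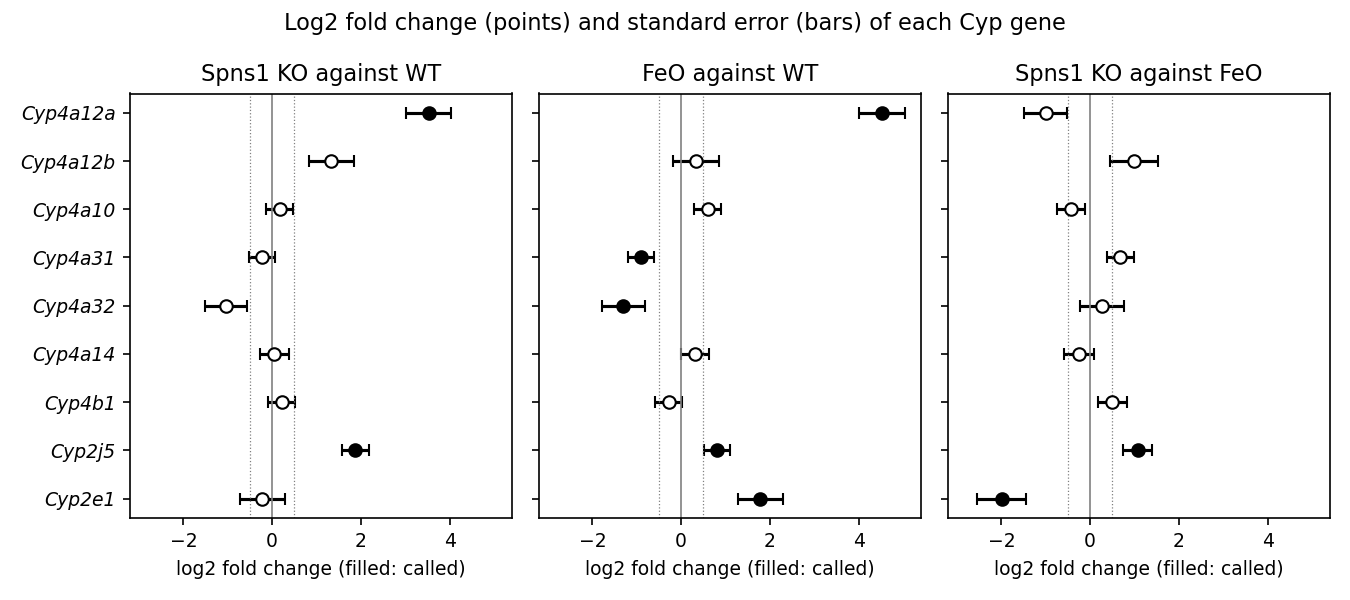
Log2 fold change of each gene in the 3 comparisons (points) with its standard error (bars), from edgeR on all 13 libraries; filled points passed the limits for a call, and dotted lines mark 0.5 in either direction. Cyp4a12a (3.53 and 4.53) was far to the right in both models, Cyp2j5 (1.88) in Spns1 KO and Cyp2e1 (1.78) in FeO.

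The bases just before the start sites of Cyp2j5 and Cyp2e1 are shown because these genes differed most in level, after Cyp4a12a, in Spns1 KO and in FeO. They are RefSeq promoters of GRCm38.p6, ended at the first annotated transcript start, and 4 of the 9 genes had an entry there (Cyp4a32, Cyp4b1, Cyp2j5 and Cyp2e1). Capitals mark matches on either strand to AGGTCA, a half-site of nuclear receptors, AGAACA, a half-site of steroid receptors, and TATAAA, the TATA box.
Cyp2j5, chr4:96664155-96664369, minus strand: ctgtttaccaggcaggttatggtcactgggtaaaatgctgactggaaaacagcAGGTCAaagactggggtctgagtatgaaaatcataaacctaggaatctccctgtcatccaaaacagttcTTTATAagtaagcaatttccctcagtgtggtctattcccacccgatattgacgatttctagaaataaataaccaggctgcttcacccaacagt
Cyp2e1, chr7:140763569-140763738, plus strand: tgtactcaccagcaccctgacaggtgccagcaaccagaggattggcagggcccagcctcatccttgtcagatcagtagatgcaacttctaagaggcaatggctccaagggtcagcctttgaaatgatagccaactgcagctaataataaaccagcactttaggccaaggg
The stretch of Cyp2j5 held 1 match to AGGTCA, which 12.3% of all 32851 promoters held in a stretch of that length, and 1 to TATAAA, which 9.75% held. That of Cyp2e1 held none of these motifs, against 9.68% of promoters with AGGTCA, 11.5% with AGAACA and 8.04% with TATAAA. Cyp4b1 and Cyp4a32 each held 1 match to AGAACA, as 16.0% and 16.1% of promoters did in stretches of their lengths. The shares of all promoters come from the first bases of each entry, not cut at its own transcript start, so distances to the start can differ. The stretch of Cyp4a32 ended at 115600937, short of its start at 115600969. A match is a run of letters and not a measured binding site.

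Per kb of transcript, the order of levels in WT was Cyp4a31 (270 ± 50.4 CPM per kb, SD, n = 5), Cyp4a14 (241 ± 56.8), Cyp4a10 (184 ± 23.8), Cyp4b1 (119 ± 16.1), Cyp2j5 (41.6 ± 8.86), Cyp2e1 (37.1 ± 29.4), Cyp4a32 (3.49 ± 0.63), Cyp4a12b (1.51 ± 0.84) and Cyp4a12a (0.38 ± 0.16). Cyp4a31 and Cyp4a14, Cyp4a14 and Cyp4a10, and Cyp2j5 and Cyp2e1 were within an SD of each other. In Spns1 KO, Cyp2j5 stood at 153 ± 22.4 CPM per kb, beside Cyp4b1 at 139 ± 49.6 (SD, n = 4). Cyp2e1 in FeO stood at 128 ± 56.3 CPM per kb, beside Cyp4a31 at 144 ± 65.3, while Cyp4a14 (298 ± 111) and Cyp4a10 (280 ± 120) led. Cyp4a12a was among the 3 lowest, at 4.47 ± 3.35 CPM per kb in Spns1 KO and 8.92 ± 5.55 in FeO.

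Across the 13 libraries, Pearson's r of log2 CPM is given as a description, since the points share libraries, groups and depth. Cyp4a14 followed Cyp4a10 (r = 0.87, and 0.87 after the group means were removed), which differ at 374 of 1521 aligned coding bases. It followed Cyp4a31 less closely (0.11, and 0.43). Cyp4b1 followed Cyp4a14 within groups (0.78), and Cyp2j5 and Cyp2e1 did not follow each other (-0.12, and 0.05). Among 12199 other genes that averaged 100 counts or more, those most like Cyp2j5 were Ugt3a2 (0.99), a glycosyltransferase, Slc16a4 (0.98), a monocarboxylate carrier, and Slco1a6 (0.97), an organic anion carrier. Most like Cyp4a14 were Acot1, a peroxisome proliferator-induced acyl-CoA thioesterase, Pex11a, a peroxisomal membrane protein, and Nat8, an acetyltransferase (0.89 each). Cyp4b1 was followed by Mat2a (0.89), Rdh16 (0.88) and Hlf (0.87), and Cyp2e1 by Agpat2, Nat8l (0.92 each) and Rps13-ps1 (0.91). The Cyp4a12 sum was most like Slc39a11 (0.92), Ogfod3 and Pyurf (0.91 each), and the sum of Cyp4a10, Cyp4a31 and Cyp4a32 was most like Cebpg (0.81), Plin5 and Lgals4 (0.75 each).

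The table held 60 other Cyp2 and Cyp4 genes, of which 29 passed the filter on low counts, 21 of Cyp2 and 8 of Cyp4. Of the 29, the Spns1 KO comparison had 5 called up and 1 down, with a median log2 fold change of 0.00. In FeO 8 were called up and 2 down, with a median of 0.50, and against FeO none was up and 5 were down in Spns1 KO. Over all genes tested, the shares called up and down were 14% and 7.55% for Spns1 KO, and 22.4% and 19.7% for FeO. For Spns1 KO against FeO they were 6.76% and 8.1%.

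The other Cyp2 and Cyp4 genes named below were picked by level, by call or after their values were seen. Their adjusted p-values are therefore given as a description. Cyp2a4 and Cyp2a5, steroid and coumarin hydroxylases that are near copies of each other, were called up in both models. Cyp2a5 was at 147, 112, 85.3, 152 and 162 CPM in WT 1 to 5, at 485, 675, 714 and 114 CPM in Spns1 KO 1 to 4 and at 195, 1021, 230 and 236 CPM in FeO 1 to 4. Spns1 KO 4 lay inside the WT range, and every FeO library lay above WT, with FeO 2 over 4 times as high as any other FeO library. Its log2 fold changes were 1.92 ± 0.52 (Spns1 KO, edgeR adjusted p = 0.016) and 1.68 ± 0.51 (FeO, edgeR adjusted p = 0.0161). Of Cyp2a4, the WT libraries held 14.3 ± 5.10 CPM, the Spns1 KO libraries 46.7 ± 6.40 and the FeO libraries 70.2 ± 44.1, with log2 fold changes of 1.70 ± 0.40 and 2.29 ± 0.41 (edgeR, adjusted p = 0.00793 and 0.000758). The FeO call of Cyp2a5 was lost without FeO 2, at 0.76 (edgeR adjusted p = 0.132), and with the replicate block, at 1.36. Its Spns1 KO call was lost without Spns1 KO 2 (1.73) or Spns1 KO 3 (1.69), and both calls of Cyp2a4 held in every alternative run.

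Of the relatives of Cyp2j5, Cyp2j11 was called up in both models, at 1.42 ± 0.27 (Spns1 KO, edgeR adjusted p = 0.00213) and 0.96 ± 0.27 (FeO, edgeR adjusted p = 0.0094) on the log2 scale. Cyp2j6 (0.12 ± 0.26 and 0.04 ± 0.26) and Cyp2j9 (0.29 ± 0.26 and -0.11 ± 0.26) did not pass the limits. Cyp2d26 was called up in Spns1 KO (1.06 ± 0.31, adjusted p = 0.0223 from edgeR) and was at 0.50 ± 0.31 in FeO (adjusted p = 0.191). That call was lost without Spns1 KO 1 (0.72) or Spns1 KO 3 (1.04), with the replicate block (0.88) and with a length and GC trend removed (0.69). Cyp2d22 (-0.36 ± 0.26 and -0.41 ± 0.26) did not pass in either model.

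In the Cyp4f branch, which hydroxylates leukotrienes and long fatty acids, Cyp4f13 was level (0.00 ± 0.13 and -0.10 ± 0.13) at 31.4 ± 2.11 CPM in WT. Cyp4f17 was called down in FeO (-0.97 ± 0.24, adjusted p = 0.00463 from edgeR) and was at -0.30 ± 0.23 in Spns1 KO. The low Cyp4f14 and Cyp4f15, named after their values were seen, were the other calls of Cyp4 in Spns1 KO. Cyp4f14 rose from 0.45 ± 0.05 to 1.36 ± 0.21 CPM (log2 fold change 1.58 ± 0.32, adjusted p = 0.00309 from edgeR). Cyp4f15 was at 0.76 ± 0.31 CPM in WT and 0.34 ± 0.11 in Spns1 KO (-1.14 ± 0.38, adjusted p = 0.0419 from edgeR). Its call was lost with the replicate block (-0.88), with limma-voom (-1.06), with no filter on low counts (-1.09) and in 7 of the 13 fits that left out a library, namely Spns1 KO 1, 2 or 3 or WT 2, 3, 4 or 5 (-1.30 to -0.89).

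**Figure D4:**
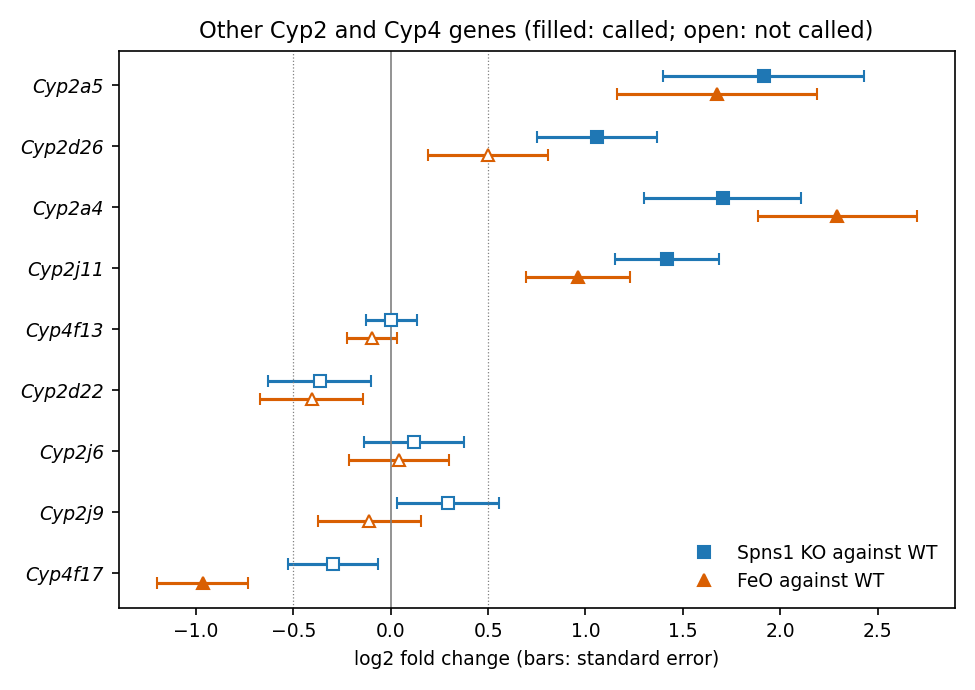
Log2 fold change (points) and standard error (bars) of the other Cyp2 and Cyp4 genes named by the rule, in order of level per kb, in Spns1 KO and FeO against WT; filled points passed the limits. Cyp2a5, Cyp2a4 and Cyp2j11 lie right of 0.5 in both comparisons, and Cyp4f17 lies left of it in FeO at -0.97.

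The partner genes supply electrons to these enzymes or handle their substrates and products. This list and those below were chosen with earlier results of these data known. Their adjusted p-values are therefore given as a description. Of the 13 partner genes, all tested, 3 were called up (Cyb5a, Cyb5r3 and Adh5) and 1 down (Gpr75) in Spns1 KO. The calls of Cyb5a and Cyb5r3 held without any 1 library, that of Adh5 (0.59) was lost without Spns1 KO 1, 2 or 3 or WT 3 (0.53 to 0.57), and that of Gpr75 (-1.31) without Spns1 KO 1 (-1.17). The FeO comparison had 6 called up and 1 down. Over all genes tested, 14% were called up and 7.55% down in Spns1 KO, and 22.4% and 19.7% in FeO. Cyb5a, cytochrome b5, went from 110 ± 21.2 CPM in WT to 241 ± 75.9 in Spns1 KO and 230 ± 72.5 in FeO, with log2 fold changes of 1.14 ± 0.24 and 1.07 ± 0.24 (adjusted p = 0.0045 and 0.00293 from edgeR). Cyb5r3, its reductase, had 1.17 ± 0.18 and 0.87 ± 0.18 (adjusted p = 0.000597 and 0.00154 from edgeR). Por, the reductase of every microsomal P450, had 0.10 ± 0.26 and 0.21 ± 0.26 and was not called. Adh1, an alcohol dehydrogenase, was called up in FeO (1.68 ± 0.34, adjusted p = 0.0015 from edgeR) and was at 0.30 ± 0.34 in Spns1 KO. Gpr75, a receptor of hydroxyeicosatetraenoic acid, was low and called down in both, from 1.25 ± 0.23 CPM in WT to 0.50 ± 0.26 and 0.55 ± 0.10 (adjusted p = 0.011 and 0.0105 from edgeR). The acyl-CoA synthetase Slc27a2 (0.73 ± 0.28 and 0.65 ± 0.28), the peroxisomal carrier Abcd3 (0.37 ± 0.30 and -0.22 ± 0.30) and Cyb5b (0.36 ± 0.24 and 0.45 ± 0.24) did not pass.

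Of 12 receptors and transcription factors known to act on Cyp genes, 1 was called up in Spns1 KO (Prlr), and 1 was called up (Pparg) and 1 down (Ppara) in FeO. Over all genes tested, 14% were called up and 7.55% down in Spns1 KO, and 22.4% and 19.7% in FeO. Ppara, the receptor through which fibrates and fatty acids induce Cyp4a genes, averaged 259 ± 74.5 CPM in the WT libraries, 168 ± 69.3 in those of Spns1 KO and 40.5 ± 32.1 in those of FeO. The log2 fold change for Spns1 KO was -0.62 ± 0.42 (edgeR adjusted p = 0.289) and that for FeO -2.68 ± 0.45 (edgeR adjusted p = 0.000644), and no FeO library overlapped WT. The FeO call of Ppara held in every alternative run, whereas that of Pparg (1.0) was lost without FeO 1 (0.67), without FeO 4 or any of WT 1 to 4 (0.92 to 0.95), with a length and GC trend removed (0.73) and with WT 1 and WT 2 summed (0.93). Its partner Rxra (0.11 ± 0.21 and -0.03 ± 0.21), Ghr (0.66 ± 0.25 and 0.40 ± 0.25) and Hnf4a (-0.02 ± 0.30 and -0.54 ± 0.30) did not pass.

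Among 18 other PPARα targets, 4 were called up and 2 down in each model, and their median log2 fold change was 0.67 for Spns1 KO and 0.52 for FeO. The summed level overlapped between all groups, at 3986 to 6059 CPM in WT, 3167 to 7552 CPM in Spns1 KO and 3499 to 5090 CPM in FeO. Members went both ways. Acadm, of mitochondrial fatty acid oxidation, was called up in both (1.23 ± 0.21 and 0.67 ± 0.21, adjusted p = 0.00135 and 0.0189 from edgeR), and Pdk4, which curbs glucose oxidation, was called down in both (-1.65 ± 0.49 and -1.50 ± 0.49, adjusted p = 0.0261 and 0.0221 from edgeR). The FeO call of Acadm was lost without FeO 3 (0.59) or FeO 4 (0.55), with the replicate block (0.64) and with a length and GC trend removed (0.38). Pdk4 lost its Spns1 KO call without Spns1 KO 1 (-1.37), Spns1 KO 2 (-1.40) or WT 3 (-1.52), and its FeO call without FeO 1 (-1.20) or FeO 3 (-1.33). Cpt1a (-0.17 ± 0.20 and -0.41 ± 0.20) and Ehhadh (0.84 ± 0.39 and 0.51 ± 0.39) did not pass.

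Some markers of sex-dependent expression also differed from WT. Over all genes tested, 14% were called up in Spns1 KO and 22.4% in FeO, and these shares stand beside the counts given here. Of 8 genes known to be higher in male mouse kidney, 3 were called up in Spns1 KO (Kap, Gusb and Hsd17b11) and 7 in FeO, and none was called down. Their summed level was 1239 to 1478 CPM in WT, 4696 to 5986 CPM in Spns1 KO and 1301 to 7286 CPM in FeO, most of it Kap, the androgen-regulated protein (log2 fold change 2.32 ± 0.51 and 1.52 ± 0.50, adjusted p = 0.00543 and 0.0227 from edgeR). The male-high Odc1 (0.53 ± 0.21 and 0.93 ± 0.21), Nudt19 (0.18 ± 0.31 and 0.99 ± 0.31) and Hsd17b11 (0.76 ± 0.24 and 1.03 ± 0.24) were called up in FeO. The FeO call of Kap was lost without FeO 4 (0.56) and that of Nudt19 without FeO 3 (0.37). Kap in FeO was also not called with limma-voom (0.90), with the replicate block (1.02) or with a length and GC trend removed (0.90). In Spns1 KO, Gusb (0.65) lost its call without Spns1 KO 1, 2 or 3 (0.59 to 0.62), and Hsd17b11 lost it in 7 of 13 such fits. Another male-high call in FeO (0.90) held in 8 of 13 such fits and was at 0.57 without FeO 1. Of 6 genes known to be higher in females, all 6 were called up in Spns1 KO and 2 in FeO (Slc22a7 and Cyp2a4), and their summed level was 177 to 233 CPM in WT, 459 to 664 CPM in Spns1 KO and 158 to 409 CPM in FeO. The smallest of the 6 changes in Spns1 KO (0.56) lost its call without Spns1 KO 1 (0.53), Spns1 KO 2 (0.54) or WT 4 (0.49). It was also not called when scaled by library totals alone (0.43). Prlr, the prolactin receptor, had 1.21 ± 0.24 and -0.08 ± 0.24 (adjusted p = 0.00299 and 0.794 from edgeR). In Spns1 KO every library thus lay above every WT library on both sums. The Y-linked Ddx3y and Eif2s3y averaged at most 0.19 CPM in any group, whereas Kdm5d averaged 6.88 to 9.29 CPM and Uty 0.74 to 2.04 CPM. Uty was called down in FeO (log2 fold change -1.45), and that call held without any 1 library. Kdm5d was not called in either model, nor was Uty in Spns1 KO. The part of sex-dependent expression in these values was not tested. Slc27a2, Prlr and Cyp2a4 each stood in 2 of the lists, as did some segment markers of the proximal tubule given below.

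Cell type markers also moved with the groups, and in bulk RNA fewer cells of a type and less RNA per cell cannot be told apart. Over all genes tested, the shares called up and down against WT were 14% and 7.55% for Spns1 KO. They were 22.4% and 19.7% for FeO, and stand beside every count of such calls given here. Of 11 proximal tubule markers, 7 were called up in Spns1 KO and none down, and their summed level was 7601 to 8966 CPM against 3601 to 4951 CPM in WT. In FeO 2 were called up and 1 down, at 2518 to 6033 CPM. Some of the 7 calls in Spns1 KO were lost in fits that left out a library. The median log2 fold change of this list in Spns1 KO was 0.86, beside 1.88 for Cyp2j5 and values between -0.22 and 0.22 for Cyp4a10, Cyp4a14, Cyp4a31 and Cyp4b1. Of 8 hepatocyte markers, a cell type in which Cyp2e1 is abundant, 5 passed the filter. None of these was called in Spns1 KO, and 3 were called up in FeO (Apoa1, Apoc3 and Ttr, at 1.77, 1.60 and 1.17 on the log2 scale). All 3 of these calls were lost without FeO 3 (1.03, 1.18 and 0.99) and with a length and GC trend removed (1.27, 1.1 and 0.67). The summed level of all 8 was 7.81 to 26.0 CPM in WT, 22.0 to 32.4 CPM in Spns1 KO and 23.5 to 55.7 CPM in FeO, and Cps1, Cyp3a11 and Mup3 averaged at most 0.13 CPM in any group. Markers of other cells were present, with 4 podocyte markers at 134 to 242 CPM in WT, 194 to 247 CPM in Spns1 KO and 245 to 582 CPM in FeO, and 6 immune markers at 40.0 to 58.5, 129 to 181 and 58.7 to 219 CPM. Of the podocyte markers 2 were called up in each model, and of the immune markers 1 in Spns1 KO and 4 in FeO. Of 5 markers of distal tubule and collecting duct, 2 were called up in Spns1 KO and 4 in FeO, with sums that overlapped (493 to 1684 CPM in WT, 1137 to 2116 in Spns1 KO and 825 to 2376 in FeO). The 4 stromal markers summed to 47.9 to 77.6 CPM in WT, and all Spns1 KO libraries lay above that (85.1 to 125.5, 2 called up), unlike FeO (40.4 to 97.1, none called). The 4 endothelial markers summed to 135 to 159 CPM in WT, 163 to 177 in Spns1 KO (1 called up) and 139 to 244 in FeO (1 up, 1 down), and of 3 markers of the loop of Henle 1 was called up in each model. Within the proximal tubule, all 3 markers of segment S1 were called up in Spns1 KO against FeO, beside 6.76% of all genes tested. They summed to 3195 to 4068 CPM in Spns1 KO and 503 to 2229 in FeO. All 3 also stood among the 11 proximal tubule markers, so this is not a separate set. Of 3 markers of segment S3, none was called in that comparison, and this list also shared a gene with the 11 markers. The part of cell make-up in the values of the 9 genes was not tested.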

How the data were processed

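RNA tagged with 4-thiouracil was captured from mouse kidney and sequenced by the authors in 13 libraries. The deposited values are estimated counts per gene symbol, whole numbers that had not been normalized. Its file name points to kallisto, and the submitters' processing notes name bcl2fastq 2.19, kallisto 0.44.0, DESeq2 and GRCm38, whereas the methods describe STAR alignment to mm10 and HTSeq counting; which of them made the counts cannot be told, and kallisto would divide reads of near copies by an estimate while HTSeq would leave out reads that fit several genes.

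Counts were scaled with TMM factors, filtered with filterByExpr (16468 of 35013 genes) and tested with edgeR 4.0.16 (R 4.3.3) in a quasi-likelihood fit of all libraries with group as the only term. P-values were adjusted over all genes tested by the Benjamini-Hochberg method. The same code was tested on simulated data. Total counts were 31809135 to 71296474 in Spns1 KO, 23068023 to 37362311 in WT and 25986133 to 29981814 in FeO. Levels per kb used 1 transcript length per gene, and identities, 31-base words and positions came from GENCODE transcripts on GRCm38.

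The members and the gene lists were chosen with earlier results of these data known, so adjusted p-values of listed genes are a description. Named were all 9 members, the 8 other Cyp2 and Cyp4 genes highest per kb, up to 2 called in each direction per model among those with at least 100 counts on average, the 5 most abundant genes of a list, the 3 genes most alike in pattern, and any gene in a small count of calls, named after its values were seen; 2 genes of the lists are not reported here. Alternatives were other scalings, no filter, DESeq2 1.42.0, limma-voom (limma 3.58.1), only the groups compared, paralogs summed, a length and GC trend, a replicate block and leaving out each library. WT 1 and WT 2 lay closer than any other pair of a group (median absolute log2 difference 0.11 against 0.19 to 0.54 in 21 other pairs) and still differed by more than counting noise. That does not tell separate animals from repeat preparations of 1 animal, so they were kept apart as labelled and summed in 1 added alternative. By the methods the WT controls were littermates. Which libraries share a litter is not given in the sources used here, and p-values measure the spread between these libraries. Same-numbered libraries of different groups had correlations of deviations from -0.30 to 0.26, with 4 of 12 over 0.1. Differently numbered libraries ran from -0.32 to 0.37. These values cannot tell whether replicate numbers pair the libraries, and the main fit did not pair them.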

Additional observations from a re-analysis of the deposited data

Results flagged for a closer look

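Of the 27 sets of a gene and a group, 4 held a library that stood far from the others of its group by Dixon's test, where chance gives about 1 in 20. Cyp4a12b was lowest in Spns1 KO 4, at 5.21 CPM, and highest in FeO 3, at 10.4 CPM. Cyp4a31 was highest in Spns1 KO 3, at 819 CPM. Cyp2e1 was highest in WT 5, at 163 CPM, whereas WT 1 to 4 lay between 27.4 and 52.4 CPM.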

How the results depend on the processing

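The calls of Cyp4a12a and Cyp2j5 in Spns1 KO and of Cyp4a12a and Cyp2e1 in FeO held in every alternative run, and no called value changed sign. Scaling by library totals alone moved the median log2 fold change of all genes by -0.13 in Spns1 KO against WT. Members called down in Spns1 KO went from 0 to 1 with limma-voom and with only the 2 groups compared. Members called down in FeO went from 2 to 0 with near-identical paralogs summed, and to 1 with WT 1 and WT 2 summed, an alternative added after seeing the data, in which the calls of Cyp4a32 (-1.24) and Cyp2j5 (0.82) in FeO were lost. Members called up in Spns1 KO against FeO went from 1 to 0 with only the 2 groups compared. With the replicate block, other Cyp2 and Cyp4 genes called down fell to 0 for Spns1 KO (from 1) and to 1 for FeO (from 2), and among the members the block ended only the call of Cyp2j5 in FeO (0.62), which was also lost with limma-voom (0.67), with only the 2 groups compared (0.81) and with a length and GC trend removed (0.61). Other Cyp2 and Cyp4 genes called down in Spns1 KO were also 0 with no filter and with limma-voom. In FeO they were also 1 with no filter, with only the 2 groups compared and with WT 1 and WT 2 summed. Leaving out 1 library at a time gave 0 to 2 members called down in FeO, 0 to 2 up and 0 to 1 down in Spns1 KO against FeO, and among other Cyp2 and Cyp4 genes 0 to 1 down in Spns1 KO and 1 to 2 down in FeO. All 633 log2 fold changes of members in the alternatives, those given above included, differed from the main value by less than the spread between replicates. Calls changed all the same, as listed. Cyp4a12a in WT rests on 12 to 49 counts per library.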
